A study of Bos taurus with 12 samples.

Results

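The genes of collagens, laminins, nidogens and matrix proteoglycans and glycoproteins were followed in bovine conceptuses and in the fibroblasts that served as nuclear donors. They were chosen by symbol: every collagen chain, every laminin alpha, beta or gamma chain with a single-digit number, NID1, NID2, FN1, FMOD, DCN, LUM, BGN, VCAN, SPARC, MGP, FBN1 and FBLN1. The array held 79 probe sets of 40 such genes, out of 24016 probe sets and 9155 named genes, and each gene was read from the probe set with the highest mean over the 12 arrays. The genes fall into 12 of the basement membrane, 9 fibrillar collagens, 9 other collagens and 10 proteoglycans or glycoproteins.

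The 12 arrays form 4 groups of 3. AI stands for conceptuses whose embryos were made in vivo by artificial insemination, IVP for those made by in vitro production, and SCNT for clones made by somatic cell nuclear transfer. All had been placed in synchronized recipient cows as blastocysts and were recovered on day 16 of gestation, at similar lengths. FB are the fibroblasts that gave the donor nuclei. The tissue label of the FB samples reads as elongated embryo, while their description names fibroblasts. The sources used here do not give breed, donor animal or passage. Nor do they say whether a replicate array held 1 animal or a pool. The p-values therefore measure only how far these arrays spread, part of which may be technical.

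A basement membrane is the thin sheet on which an epithelium rests. Laminin trimers and type IV collagen each form a network in it, and nidogens and the heparan sulfate proteoglycan perlecan connect the networks. Fibrillar collagens form the thick fibres of connective tissue, whose spacing and assembly are tuned by small leucine-rich proteoglycans such as decorin and lumican, and fibroblasts are the main source of both. In the elongating ruminant conceptus, trophoblast and the hypoblast beneath it are epithelial layers separated by such a sheet.

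Values are the deposited log2 signals, in which a difference of 1 is a doubling. Values below log2 4 were treated as too low to be ordered, and the lowest value on the arrays was 2.42. Each array had 26.5% to 27.7% of its probe sets above that limit. The trophoblast markers KRT18, IFNT2, TKDP1 and PAG2 exceeded log2 4 on every conceptus array and on no FB array, while KRT8 and ELF5 did so on no array, so 4 of 6 measured markers were detected. Among 7 measured fibroblast or mesenchyme markers, VIM, PDGFRA, S100A4, ACTA2 and TAGLN were above log2 4 on all FB arrays, PDGFRB on none, and THY1 was below log2 4 in FB (2.78 to 3.28) but above it on all conceptus arrays (4.06 to 5.32). ACTA2 was also above log2 4 on AI 1 (5.32) and AI 2 (4.08), and TAGLN on all conceptus arrays (5.80 to 7.35). The summed linear signal of these markers was 17024 to 19208 in FB and 126.2 to 238.4 in conceptuses. VIM, the intermediate filament gene of mesenchyme, was at 2.46 to 2.85 on the conceptus arrays. The 4 endothelial markers were below log2 4 on all arrays.

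The classes differed in which arrays they were above log2 4 on. Of the 9 fibrillar collagen genes, 5 were above log2 4 on all FB arrays and on no conceptus array, 4 were above it on no array, and 0 were above it on any conceptus array. Of the 12 basement membrane genes, 5 (COL4A1, LAMB1, LAMC1, NID1 and NID2) were above log2 4 on all 9 conceptus arrays, and COL18A1 on 5 of the 9. That is 41.7% of the class, near the 39.7% of all named genes above log2 4 on all conceptus arrays. On all FB arrays 6 of the 12 were above log2 4 (LAMB1, LAMC1, NID1, NID2, COL15A1 and LAMB2), or 50%, beside 44% of named genes. Over all 40 genes, 14 were above log2 4 on all FB and no conceptus arrays, a pattern shown by 5.53% of the 9155 named genes. Those 14 were the fibrillar chains COL1A1, COL1A2, COL3A1, COL5A2 and COL11A1, the other collagens COL6A1 and COL12A1, the basement membrane genes COL15A1 and LAMB2, and BGN, DCN, FBN1, FMOD and LUM. Another 7 were above log2 4 on all 12 arrays (33.8% of named genes), 2 on all conceptus and no FB arrays (4.71%), 2 on some arrays of a group (13.9%) and 15 on no array (42.1%). These shares are descriptions of levels and were not tested. In bulk RNA, fewer cells of a type and less RNA per cell cannot be told apart.

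**Figure D1:**
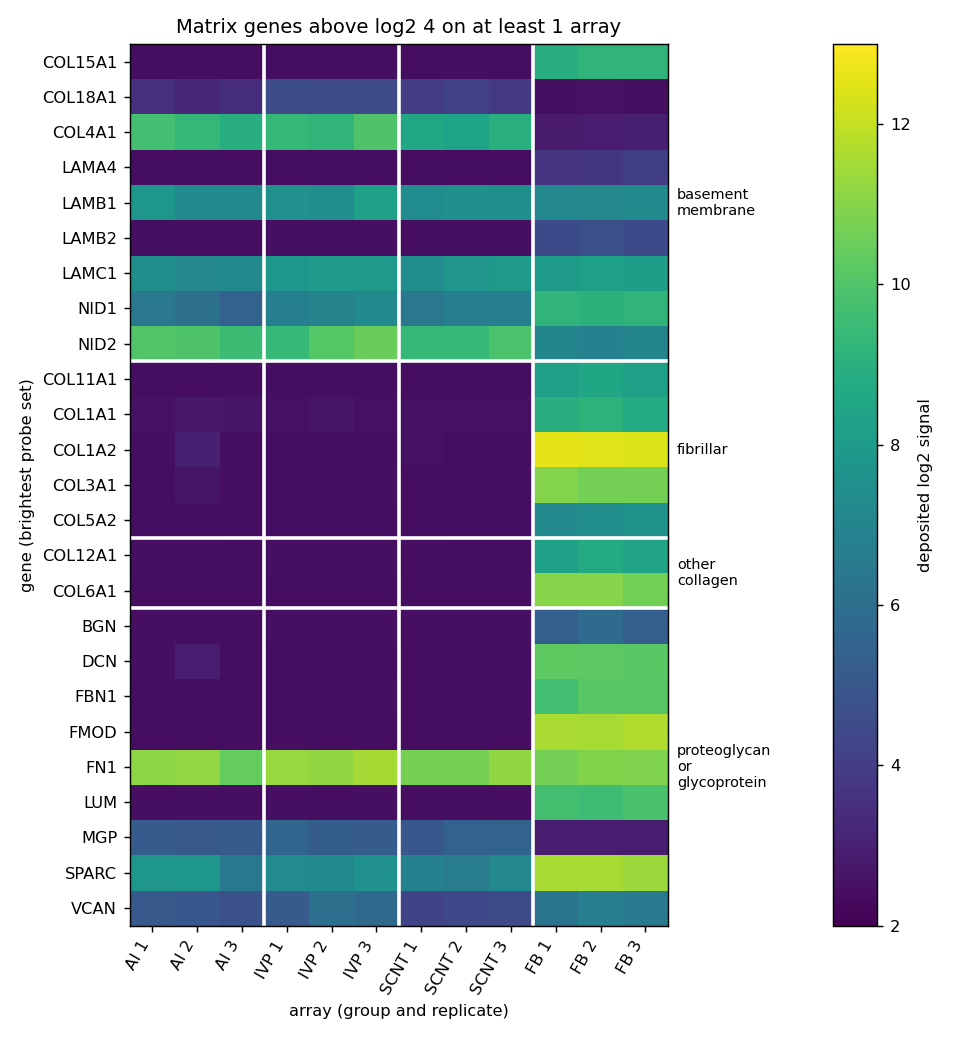
Deposited log2 signal (colour) of the 25 matrix genes above log2 4 on at least 1 of the 12 arrays, by gene (rows, in classes) and array (columns, in groups); colours compare arrays within a row, since probe sets differ in brightness. The fibrillar collagens are dark on all 9 conceptus arrays and bright on the 3 FB arrays, while COL4A1, LAMB1, LAMC1, NID1 and NID2 are above log2 4 on every conceptus array.

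COL4A1 encodes the alpha1 chain of type IV collagen, the network-forming collagen of basement membranes. Its log2 signal was 9.70, 9.31 and 8.90 on the AI arrays, 9.32, 9.18 and 9.95 on the IVP arrays, 8.57, 8.38 and 8.98 on the SCNT arrays, and 2.81, 2.88 and 2.96 on the FB arrays. All conceptus arrays lay far above all FB arrays. Where a group's mean was below log2 4, its arrays below 4 were set to 4 and the fold is given as a bound, and on this basis COL4A1 was at least 39.4-fold higher in AI, at least 44.7-fold in IVP and at least 25.0-fold in SCNT conceptuses than in fibroblasts (limma, adjusted p = 1.21e-10, 9.64e-11 and 3.44e-10). A second, dimmer COL4A1 probe set gave the same direction, by 4.09, 4.44 and 3.86 on the log2 scale. Both probe sets passed the filter on low values only through conceptus arrays, so their tests against FB add nothing to the levels. The alpha3 and alpha4 chains, COL4A3 and COL4A4, stayed below log2 4 on all arrays, and COL4A2, which pairs with COL4A1 in the usual type IV trimer, was not analysed here.

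Laminins are trimers of an alpha, a beta and a gamma chain. The beta1 chain gene LAMB1 was at 7.80, 7.25 and 7.20 in AI, 7.57, 7.41 and 8.31 in IVP, 7.33, 7.52 and 7.46 in SCNT and 7.15, 7.17 and 7.21 in FB, so that the AI and FB arrays overlapped. The gamma1 chain gene LAMC1 was at 7.45, 7.09 and 7.27 in AI, 7.84, 7.96 and 7.94 in IVP, 7.41, 7.74 and 7.93 in SCNT and 8.01, 8.25 and 8.18 in FB, the highest group. LAMB2, the beta2 chain of other laminins, was at 4.45 to 4.69 in FB and at most 2.47 in conceptuses, and LAMB3, the beta chain of epithelial laminin-332, was below log2 4 throughout. The only alpha chain among the 40 genes, LAMA4, was at 3.64, 3.73 and 4.03 in FB and 2.42 on every conceptus array. The alpha chain that accompanies LAMB1 and LAMC1 in conceptuses was not analysed here.

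The nidogens, which link the laminin and type IV collagen networks, went opposite ways between conceptus and fibroblast. NID1 was at 6.40, 6.07 and 5.45 in AI, 6.75, 6.91 and 7.28 in IVP, 6.35, 6.69 and 6.73 in SCNT and 9.20, 9.08 and 9.18 in FB. NID2 was at 10.00, 9.99 and 9.53 in AI, 9.39, 10.09 and 10.49 in IVP, 9.38, 9.36 and 9.89 in SCNT and 7.03, 6.84 and 7.02 in FB. For both genes no conceptus array overlapped the FB arrays. NID1 was 9.07-fold lower in AI (95% interval 6.53 to 12.6), 4.50-fold lower in IVP (3.24 to 6.25) and 5.92-fold lower in SCNT conceptuses (4.26 to 8.21) than in FB, with adjusted p of 4.53e-08, 1.65e-06 and 3.34e-07 (limma). NID2 was 7.34-fold (5.04 to 10.7), 8.17-fold (5.60 to 11.9) and 5.98-fold (4.10 to 8.71) higher, with adjusted p of 4.44e-07, 2.67e-07 and 1.15e-06.

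Of the 40 genes, 24 entered the test against FB. In AI against FB 4 were higher and 18 lower, where 75.9% of 4978 genes passed, 41.5% higher and 34.3% lower. In IVP 6 were higher and 17 lower (background 77.6%, of which 44.4 points higher and 33.2 lower), and in SCNT 4 were higher and 18 lower (background 78.9%, 46 points higher and 33 lower). Of the 24, 14 passed the filter only through FB and COL4A1 and MGP only through conceptuses, so these had to differ. COL18A1 passed only through IVP and SCNT arrays, and its AI and FB arrays were all below log2 4. With values below log2 4 set to 4, COL18A1 differed from FB by 0.00 in AI and 0.05 in SCNT. COL4A1, COL18A1 and MGP are counted as higher in each comparison, although another MGP probe set was at least 101-fold lower than in FB. Both nidogens are among the 7 genes above log2 4 on all 12 arrays, which the filter on low values could not have selected for a difference. In SCNT against FB, 5 of these 7 passed the test, 1 higher (NID2) and 4 lower (LAMC1, NID1, SPARC and VCAN), where 73% of the 3095 genes above log2 4 on all arrays passed. In AI against FB 5 passed, again NID2 higher and LAMC1, NID1, SPARC and VCAN lower (background 68.7%). In IVP against FB 6 passed (background 71.6%), with LAMB1, FN1 and NID2 higher and NID1, SPARC and VCAN lower. The 3 comparisons share the FB arrays. A dimmer LAMC1 probe set was 0.12, 0.31 and 0.21 above FB on the log2 scale in AI, IVP and SCNT and did not pass. The 3 VCAN probe sets tested were all lower than in FB, and 2 of them passed in AI, 1 in IVP and 3 in SCNT. The shares of members called are near these backgrounds. The IVP calls of LAMB1 and FN1, 1.50-fold and 1.42-fold higher than in FB, each ended when any of several single arrays was left out (LAMB1 up to adjusted p = 0.104 without IVP 3, FB 1, FB 2 or FB 3, and FN1 up to 0.121 without IVP 1, IVP 3, FB 1, FB 2 or FB 3).

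The secreted glycoproteins differed among themselves. FN1 encodes fibronectin, a cell-adhesive glycoprotein of both embryonic and connective tissue matrix, and was at 11.09, 11.23 and 10.38 in AI, 11.30, 11.17 and 11.52 in IVP, 10.76, 10.73 and 11.16 in SCNT and 10.69, 10.92 and 10.86 in FB. The AI and SCNT arrays overlapped the FB arrays, with log2 differences of 0.08 (95% interval -0.37 to 0.52) and 0.06 (-0.39 to 0.50). SPARC, a collagen-binding glycoprotein, was at 7.81, 7.78 and 6.45 in AI, 7.30, 7.24 and 7.58 in IVP, 6.83, 6.61 and 7.13 in SCNT and 11.54, 11.58 and 11.34 in FB. It was 17.7-fold lower in AI (11.2 to 27.8), 17.3-fold lower in IVP (11.0 to 27.2) and 24.7-fold lower in SCNT conceptuses (15.7 to 38.9) than in FB, and AI 3 was the lowest array of all. A second FN1 probe set stayed at 2.42 in every group.

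Among the fibrillar collagens, COL1A2, the alpha2 chain of type I collagen, was at 12.55, 12.49 and 12.39 in FB and between 2.42 and 2.97 on the conceptus arrays, at least a 357-fold difference. COL1A1, the alpha1 chain, was at 8.95, 9.11 and 8.72 in FB and 2.49 to 2.73 in conceptuses, at least 30.5-fold. COL3A1, type III collagen, reached 10.68 to 10.95 in FB against at most 2.64. COL5A2 and COL11A1, chains of the minor collagens that nucleate fibrils, reached 7.28 to 7.67 and 8.25 to 8.50 in FB and 2.42 on every conceptus array. The cartilage collagen COL2A1 and COL11A2, COL5A3 and COL27A1 were below log2 4 on all 12 arrays. COL1A2 and COL3A1 each had a second probe set with the same pattern, and a second COL1A1 probe set was at 2.42 in all groups. Of 7 COL11A1 probe sets 2 were above log2 4 on all FB arrays and 5 had FB means of 2.42 to 2.50.

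Of the other collagens, COL6A1, a chain of the beaded microfibrils around cells, was at 11.02, 10.99 and 10.66 in FB, and the fibril-associated COL12A1 at 8.30, 8.74 and 8.42, with conceptus values of at most 2.46 for both. Each was read from 1 of 3 probe sets, and the other 2 had FB means of 2.42 to 2.60 for COL6A1 and 2.42 to 2.99 for COL12A1. The remaining 7 (COL6A2, COL9A1, COL10A1, COL13A1, COL17A1, COL21A1 and COL26A1) were below log2 4 on every array. COL17A1 is the transmembrane collagen of hemidesmosomes, junctions that anchor epithelial cells to a basement membrane. COL15A1, a collagen of the basement membrane zone in connective tissue, was at 8.93, 9.21 and 9.18 in FB and 2.42 in conceptuses, whereas the related COL18A1 was at 2.42 to 2.50 in FB and 3.26 to 4.62 in conceptuses.

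The small leucine-rich proteoglycans followed the fibrillar collagens. FMOD (fibromodulin) was at 11.62, 11.58 and 11.69 in FB, DCN (decorin) at 10.27, 10.24 and 10.18, LUM (lumican) at 9.77, 9.58 and 9.86 and BGN (biglycan) at 5.34, 5.85 and 5.34. Their highest conceptus values were 2.42, 2.82, 2.46 and 2.46. FBN1, the fibrillin of elastic microfibrils, was at 9.66 to 10.16 in FB and at most 2.46 in conceptuses. Over the 14 genes above log2 4 on all FB and no conceptus arrays, the highest value was 2.50 on any SCNT array, 2.67 on any IVP array and 2.97 on any AI array, the last for COL1A2 on AI 2. Each of the 14 passed the test against FB in all 3 conceptus groups, but as these genes entered the test only through the FB arrays, their calls add nothing to the levels. On the SCNT arrays, as on the AI and IVP arrays, all 14 were below log2 4.

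MGP and FBLN1 could not be assigned a single pattern, because probe sets of MGP went opposite ways and the brightest of FBLN1 was below log2 4 where the other was not. MGP encodes matrix Gla protein, an inhibitor of calcification. Its brightest probe set by overall mean was at 5.20, 5.08 and 5.10 in AI, 5.60, 5.24 and 5.21 in IVP, 4.97, 5.46 and 5.52 in SCNT and 2.85 to 2.89 in FB. A second was at 2.42 in all conceptus groups and had a mean of 10.65 in FB, at least 101-fold higher there. The first is annotated to an expressed sequence and the second to the RefSeq transcript of MGP, so MGP cannot be called higher in either tissue without choosing between them. Of the 2 probe sets of FBLN1, a glycoprotein of elastic fibres and basement membranes, the brighter one stayed at 2.75 to 3.57 on all arrays and was not tested, while the other had means of 4.93 in FB and 2.44 in each conceptus group.

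**Figure D2:**
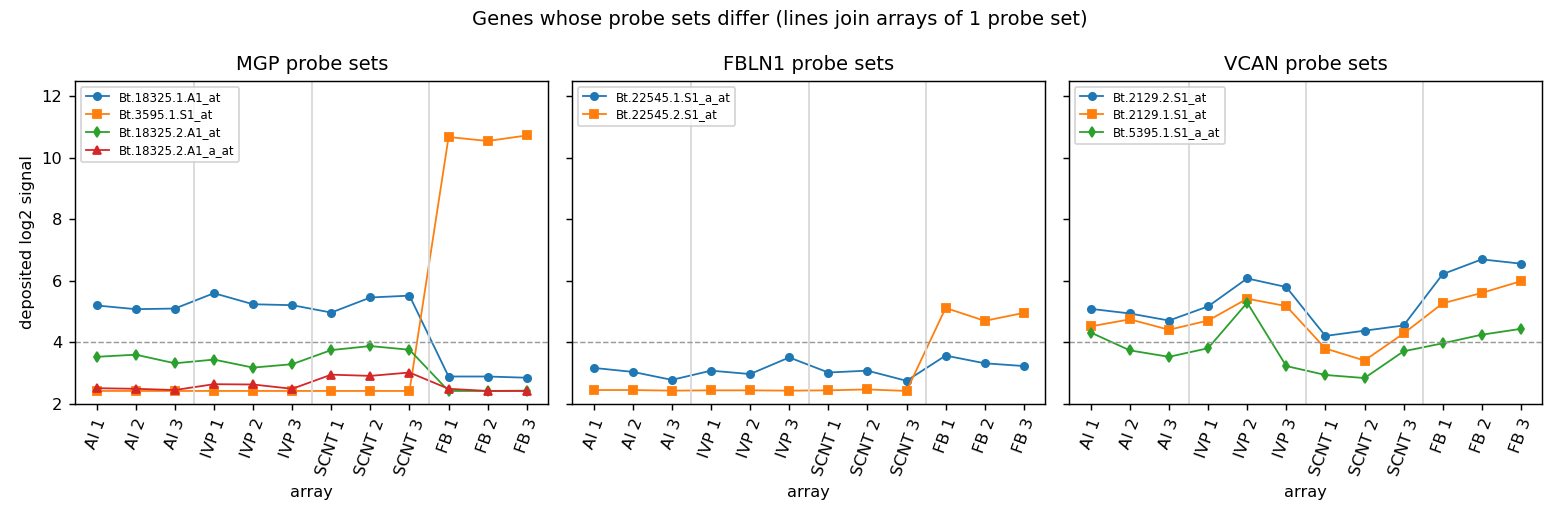
Deposited log2 signal (vertical axis) of every probe set of MGP, FBLN1 and VCAN on the 12 arrays (horizontal axis); lines only join the arrays of a probe set, and the dashed line is log2 4. The probe set of MGP with a mean of 10.65 in FB is at 2.42 on all conceptus arrays, while the one that chose the gene's value is above log2 4 only in conceptuses; the brighter pair of VCAN probe sets are lowest in SCNT.

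The comparison of conceptus groups asked whether matrix gene expression differed with the origin of the embryo. Of the 40 genes, 10 passed the filter in the 9 conceptus arrays, 6 of the basement membrane and 4 glycoproteins or proteoglycans; the fibrillar and other collagens gave 0. In IVP against AI, 4 of the 10 were higher (COL18A1, LAMC1, NID1 and VCAN), 0 were lower and 6 did not pass, where 17.6% of the 4347 genes tested passed, 9.48% higher and 8.17% lower. The AI and IVP arrays of 5 of the 10 did not overlap (38.4% of all genes). COL18A1 passed the filter only through IVP and SCNT arrays, which favoured its calls in both groups against AI. In SCNT against AI, COL18A1 alone was higher and 9 did not pass (background 28.2%, 17.6% higher and 10.6% lower), with 5 of the 10 at an unadjusted p under 0.05 and 2 without overlap (45.5% of all genes). The count was 3 without AI 3 (COL18A1, COL4A1 and SPARC), and 2 without AI 1 (COL18A1 and NID1) or SCNT 1 (COL18A1 and LAMC1). In SCNT against IVP, VCAN alone was lower (background 0.437%, 0.345% lower and 0.092% higher), 3 had an unadjusted p under 0.05 and 6 did not overlap (19.6% of all genes). The share of all genes with an unadjusted p under 0.05 was not computed, so these counts of 5 and 3 have no background and show no excess. In IVP against AI the count was 2 without AI 3 and 1 without IVP 3. The median log2 difference of the 10 was 0.39 in IVP against AI, 0 in SCNT against AI and -0.45 in SCNT against IVP, beside 0.06, 0.10 and 0.05 for all genes tested. The first 2 comparisons share the AI arrays, and the groups' values are therefore given side by side.

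**Figure D3:**
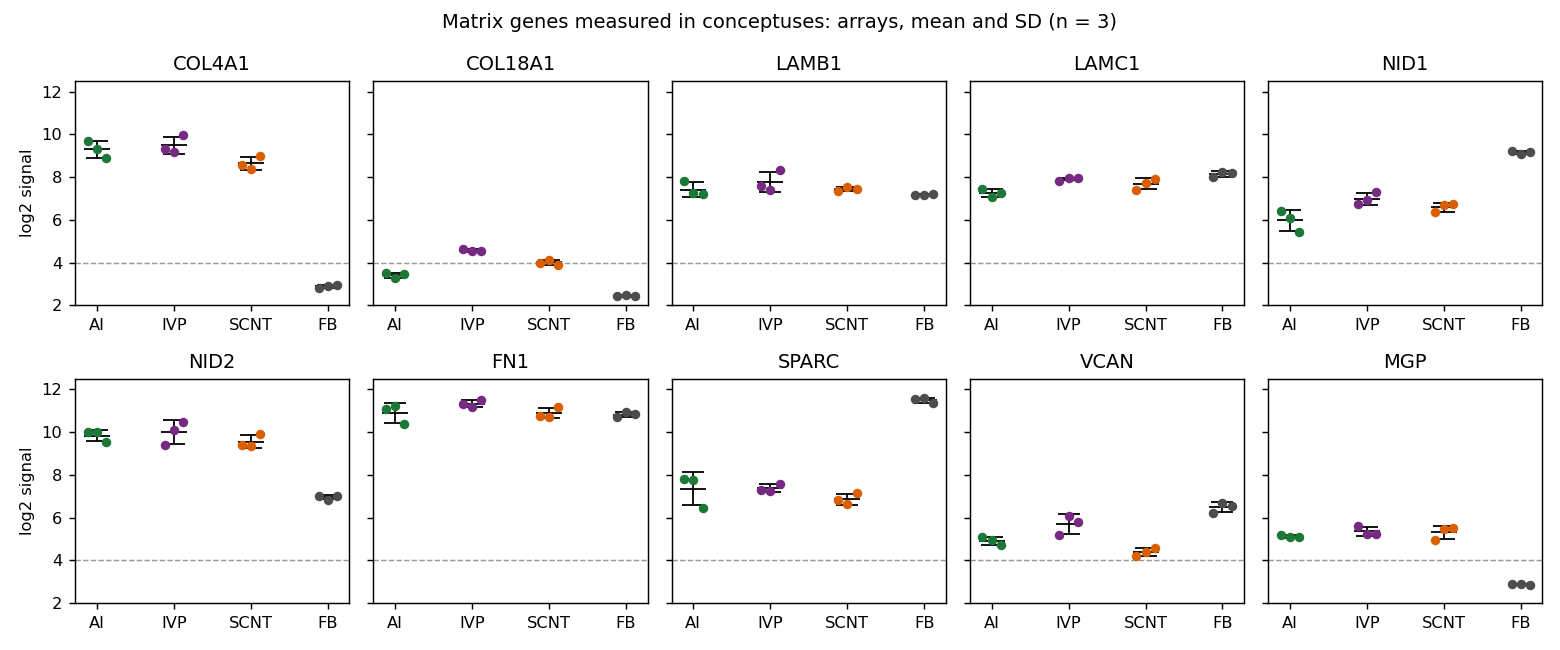
Deposited log2 signal of the 10 matrix genes tested among conceptuses, by group; points are arrays, bars are the mean and SD of 3 arrays, and the dashed line is log2 4. NID1, LAMC1, COL18A1 and VCAN are higher on all IVP than on all AI arrays, and COL4A1 and NID2 are lower on all FB than on all conceptus arrays.

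NID1 was 2.01-fold higher in IVP than in AI conceptuses (95% interval 1.40 to 2.89, adjusted p = 0.0155), with log2 signals of 6.98 ± 0.27 in IVP and 5.97 ± 0.49 in AI (mean ± SD, 3 arrays a group) and no overlap of arrays. The call ended without IVP 3 (adjusted p = 0.0538). In SCNT it was 1.53-fold higher than in AI (1.07 to 2.20), which did not pass (adjusted p = 0.0756). SCNT 1 lay within the AI range. NID2, its relative, had log2 differences of 0.15 (-0.43 to 0.74) and -0.30 (-0.89 to 0.29).

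LAMC1 was 1.56-fold higher in IVP than in AI (1.23 to 1.98, adjusted p = 0.0182), at 7.91 ± 0.06 against 7.27 ± 0.18, again without overlap. The call ended without AI 3 or IVP 3 (adjusted p up to 0.0515), and a dimmer LAMC1 probe set gave 0.19 on the log2 scale and did not pass (adjusted p = 0.523). In SCNT the gene was at 7.69 ± 0.26, 1.34-fold above AI, which did not pass (adjusted p = 0.0673). LAMB1, the partner chain, gave log2 differences of 0.34 (-0.18 to 0.86) for IVP and 0.02 (-0.50 to 0.54) for SCNT against AI.

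COL18A1 encodes the core protein of a basement membrane heparan sulfate proteoglycan, the source of endostatin. It was at 3.50, 3.26 and 3.45 in AI, 4.62, 4.52 and 4.53 in IVP and 4.0, 4.13 and 3.88 in SCNT, and the 3 groups did not overlap. The gene passed the filter only through IVP and SCNT arrays. It was at least 1.47-fold higher in IVP than in AI (adjusted p = 2.84e-04, log2 difference 1.15, SE 0.13), and this call held with each array left out. The log2 difference between SCNT and AI was 0.60 (SE 0.13, adjusted p = 0.00630), but all AI arrays and SCNT 3 lay below log2 4, and with values below log2 4 set to 4 it was 0.05 (adjusted p = 0.774). COL18A1 had 1 probe set. Against FB it was at least 1.47-fold higher in IVP, and no fold is given for AI or SCNT.

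VCAN encodes versican, a large chondroitin sulfate proteoglycan of provisional and embryonic matrix. It was at 5.09, 4.94 and 4.71 in AI, 5.17, 6.08 and 5.80 in IVP, 4.21, 4.38 and 4.55 in SCNT and 6.22, 6.70 and 6.56 in FB, so that each conceptus group lay apart from the others. It was 2.47-fold lower in SCNT than in IVP (1.77 to 3.44, adjusted p = 0.0337) and 1.70-fold higher in IVP than in AI (1.22 to 2.37, adjusted p = 0.0332). In SCNT it was 1.45-fold below AI, which did not pass (adjusted p = 0.0893). A dimmer probe set gave the same directions, with at least 2.01-fold lower in SCNT than in IVP (adjusted p = 0.0479), at least 1.38-fold lower in SCNT than in AI (adjusted p = 0.0430) and 1.46-fold higher in IVP than in AI (adjusted p = 0.135). The call against AI ended without AI 1, AI 2, AI 3, IVP 2 or IVP 3 (adjusted p up to 0.106), and that against IVP without IVP 2, IVP 3 or any SCNT array (adjusted p up to 0.141).

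COL4A1 was 1.58-fold lower in SCNT than in AI (1.07 to 2.33, adjusted p = 0.0771) and 1.79-fold lower than in IVP (1.21 to 2.64, adjusted p = 0.206), neither of which passed. All IVP arrays lay above all SCNT arrays, while AI 3 fell below SCNT 3. The summed signal of 9 measured hypoblast and yolk sac markers, a cell layer known for basement membrane secretion, was 3709 to 5261 in AI, 4192 to 4992 in IVP and 3071 to 3960 in SCNT. Of these markers GATA6, APOA1 and RBP4 were above log2 4 on all conceptus arrays, GATA4, HNF4A, AFP, TTR and APOB on none, and FGG on AI 1, AI 2 and IVP 3. TTR was at 6.57 to 6.89 in FB. Most of the sum came from APOA1, at 11.68 to 12.23 in AI, 11.92 to 12.18 in IVP and 11.45 to 11.84 in SCNT. GATA6 overlapped between the groups, at 7.66 to 7.97 in AI, 7.67 to 7.77 in IVP and 7.51 to 7.79 in SCNT. RBP4 was at 6.97 to 7.32 in AI, 6.15 to 6.67 in IVP and 5.05 to 6.03 in SCNT. The part of these markers in the levels of COL4A1 was not tested.

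Measures of array and RNA quality moved with the IVP group. The log2 gap between the 3' and 5' probe sets of GAPDH was 0.35 to 0.89 in IVP, 0.21 to 0.38 in AI, 0.28 to 0.45 in SCNT and 0.01 to 0.06 in FB. The mean log2 spike-in signal was 8.57 to 8.61 on AI 2, IVP 2 and IVP 3, and 7.69 to 8.08 on the other conceptus arrays. Leaving out these 3 arrays left IVP 1 as the only IVP array, so only log2 differences are given for that setting. In IVP against AI NID1 then differed by 0.82, LAMC1 by 0.48 and VCAN by 0.27, beside 1.01, 0.64 and 0.77 with all arrays. With the GAPDH gap as a covariate 1 of the 4 calls in IVP against AI remained, that of COL18A1. The differences of NID1, LAMC1 and VCAN were then 0.85, 0.55 and 0.58 (limma, adjusted p = 0.154, 0.168 and 0.283). The remaining call, that of COL18A1, is the one that the filter favoured. In SCNT against IVP VCAN differed by -0.79 without the 3 arrays, beside -1.30 with all arrays. Its call there ended with the GAPDH covariate (limma, adjusted p = 0.168). Leukocyte genes ITGB2 and CD48 and the heme synthesis gene ALAS2 were above log2 4 on all AI arrays. The summed signal of 5 leukocyte markers was 285.5 to 654.1 in AI and 30.8 to 74.5 in the other conceptuses, and that of 5 red cell markers 90.1 to 253.0 and 27.0 to 29.2, with PTPRC, CD53, LCP1 and 4 globin genes below log2 4 on all arrays. The part of these markers in the matrix differences was not tested.

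**Figure D4:**
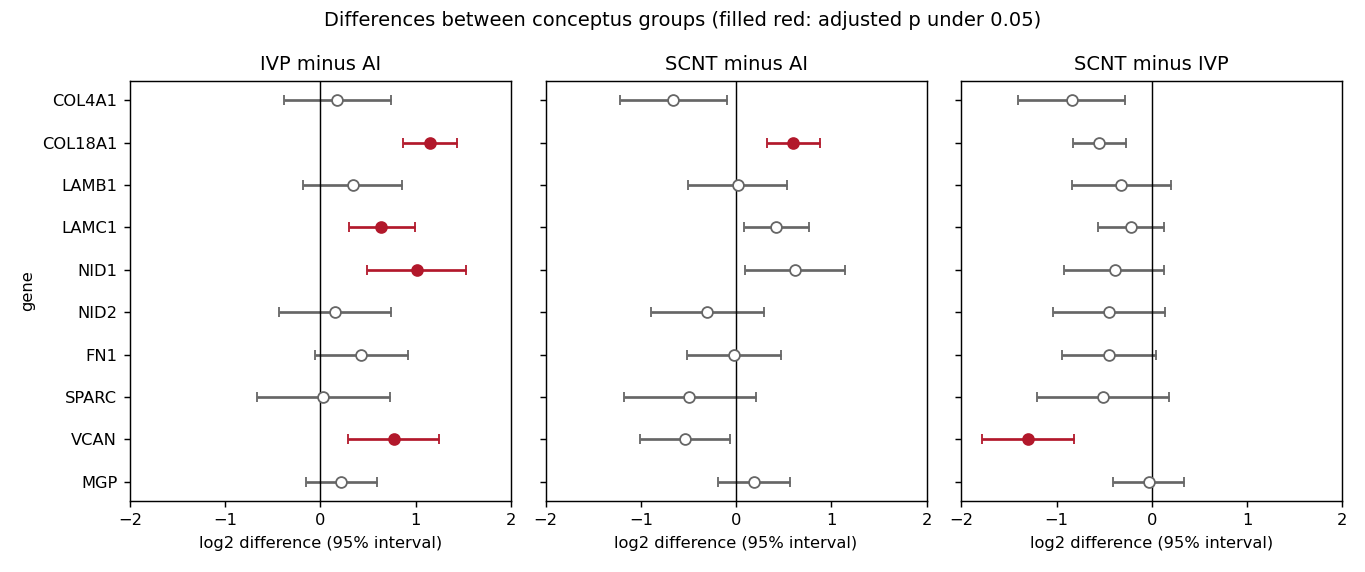
Log2 difference between conceptus groups (horizontal axis, with its 95% interval) for the 10 matrix genes tested (vertical axis), with 3 arrays a group; filled red points passed at an adjusted p under 0.05. In IVP minus AI all 10 points lie at or above 0 and 4 passed, and in SCNT minus IVP all 10 lie below 0 and VCAN alone passed.

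Genes that make, cross-link and bind the matrix were read from 4 further lists. Of 25 collagen synthesis and cross-linking genes on the array 15 were tested among conceptuses. In IVP against AI 2 were higher and 13 did not pass (background 17.6% called, 9.48% higher). In SCNT against AI (background 28.2%) and SCNT against IVP (0.437%) 0 passed, and the medians were 0.04, -0.01 and -0.17 beside 0.06, 0.10 and 0.05 for all genes. These counts rest on the brightest probe sets. A dimmer PLOD1 probe set was called lower in SCNT than in AI, where the brighter one differed by 0.03. SERPINH1, the collagen-specific chaperone of the endoplasmic reticulum, was at 6.43, 6.19 and 6.0 in AI and 6.88, 7.17 and 7.03 in IVP, 1.77-fold higher (adjusted p = 0.00632). The log2 difference of SERPINH1 was 0.82, and 0.67 without the 3 arrays with high spike-in signal, which left 1 IVP array. P4HA2, a catalytic subunit of collagen prolyl 4-hydroxylase, was 1.58-fold higher (adjusted p = 0.0463), a call that ended without AI 2, AI 3, IVP 1 or IVP 3 (adjusted p up to 0.150). Against FB, 21 were tested, of which 6 passed the filter only through FB and had to be lower. Of the other 15, 11 were lower in AI, 11 in IVP and 12 in SCNT (background 34.3%, 33.2% and 33% lower). That background still includes genes that passed the filter only through FB, so the sets are unlike. The 3 probe sets of MIA3, counted as lower, were all called but did not share a sign. P4HB alone of the list was higher, 1.79-fold to 1.90-fold. P4HB, named after its values were seen, is a protein disulfide isomerase and also the beta subunit of prolyl 4-hydroxylase.

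Of 16 matrix receptor genes on the array 5 were tested among conceptuses, and 2 were lower in IVP (background 8.17% lower) and in SCNT (10.6%) than in AI. The median log2 differences of the 5 were -0.45 and -0.28, beside 0.06 and 0.10 for all genes, and in SCNT against IVP 0 passed (background 0.437%). BCAM, a laminin receptor of the immunoglobulin superfamily, was at 7.78, 7.33 and 7.93 in AI, 5.56, 5.94 and 5.99 in IVP, 5.52, 5.79 and 5.40 in SCNT and 3.15 to 3.28 in FB. It was 3.61-fold lower in IVP and 4.31-fold lower in SCNT than in AI (adjusted p = 1.88e-04 and 6.42e-05), with all AI arrays above all others and both of its probe sets called. ITGAV, the alpha V integrin subunit that pairs in receptors for fibronectin and other RGD-bearing proteins, was at 7.29, 7.94 and 7.51 in AI, 6.38, 6.76 and 6.48 in IVP and 6.33, 6.39 and 6.45 in SCNT, 2.06-fold and 2.28-fold lower (adjusted p = 0.00308 and 0.00100). Its call and that of BCAM held with each array left out and with the GAPDH covariate. Of 8 receptor genes tested against FB, 5 were lower in every conceptus group (ITGAV, ITGB1, ITGB3, CD44 and SDC2; background 33% to 34.3%), 3 of them (ITGB3, CD44 and SDC2) having passed the filter only through FB. DAG1 was higher in all 3 groups (background 41.5% to 46%). BCAM was also higher in all 3, but it was above log2 4 in conceptuses alone and had to be higher. The brighter ITGB5 probe set was called higher in IVP and the other 1 of its 2 probe sets lower, so ITGB5 has no single direction. The medians of the 8 were -0.73 in AI, -1.28 in IVP and -1.41 in SCNT, beside 0.11, 0.19 and 0.23 for all genes. They include ITGB3, CD44, SDC2 and BCAM, whose direction was set by the filter. DAG1, named like the other receptors not called among conceptuses after its values were seen, encodes the laminin-binding dystroglycan and was 7.36-fold higher in AI, 5.40-fold in IVP and 6.07-fold in SCNT.

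Of 29 interstitial matrix genes outside the 40, 5 were tested among conceptuses. In IVP against AI 1 was lower (background 8.17% lower). In SCNT against AI 1 was higher and 1 lower (background 17.6% higher and 10.6% lower), and in SCNT against IVP 0 passed (background 0.437%). These counts rest on the brightest probe sets. A dimmer THBS1 probe set was also called higher in SCNT than in AI. SRPX, a sushi-repeat protein gene, was at 6.90, 6.16 and 6.09 in AI, 3.46, 4.55 and 4.42 in IVP, 3.15, 3.99 and 3.69 in SCNT and 8.24 to 8.29 in FB. It was 4.72-fold lower in IVP and at least 5.23-fold lower in SCNT than in AI (adjusted p = 0.00135 and 2.53e-04). MFAP2, a microfibril protein gene, was at least 1.19-fold higher in SCNT than in AI (adjusted p = 0.0156), a call that ended without AI 1 or SCNT 2 (adjusted p up to 0.0563), without the filter (0.143) and with values below log2 4 set to 4 (0.0974). Against FB, 19 genes of this list were tested, of which 14 passed the filter only through FB and had to be lower. Of the other 5, 4 were lower in each conceptus group and 0 higher. The background was 33% to 34.3% lower and 41.5% to 46% higher, and it still includes genes that passed only through FB. The remaining gene, THBS1, was not called from its brightest probe set. Of its 5 probe sets 4 were called in each group, and their signs disagreed, so THBS1 has no single direction. Of 5 other basement membrane genes on the array 1 was tested among conceptuses: HSPG2, which encodes perlecan, at 4.45, 4.45 and 4.17 in AI, 4.65, 4.24 and 4.54 in IVP and 3.87, 3.52 and 3.68 in SCNT. It was at least 1.28-fold lower in SCNT than in AI (adjusted p = 0.00999), a call that ended without the filter (adjusted p = 0.0611) and with values below log2 4 set to 4 (0.0749). IVP differed from AI by 0.12 on the log2 scale and did not pass.

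**Figure D5:**
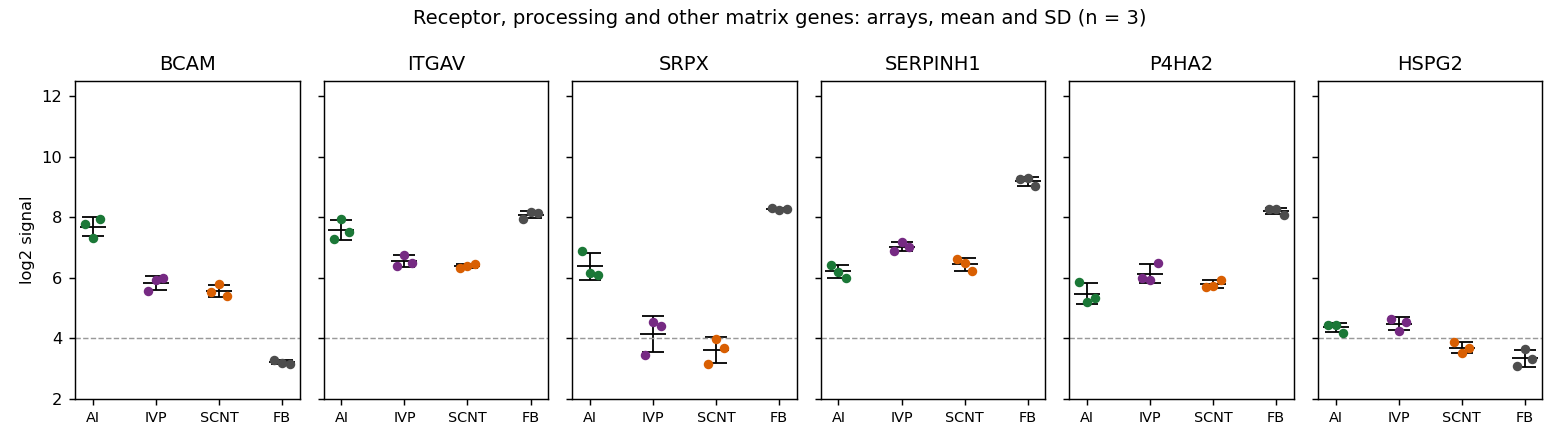
Deposited log2 signal of 6 receptor, processing and other matrix genes by group; points are arrays, bars are the mean and SD of 3 arrays, and the dashed line is log2 4. BCAM, ITGAV and SRPX are higher on all 3 AI arrays than on all IVP and SCNT arrays, and SERPINH1 is higher on all IVP than on all AI arrays.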

How the data were processed

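Biotin-labelled RNA was hybridized to Affymetrix bovine arrays. The authors' deposited values are log2 signals, for 24128 probe sets. The submitters' processing notes name GCRMA and limma without versions, and do not say if the 12 arrays were normalized as 1 set. After removal of 112 control probe sets 24016 remained, of which 13292 had 1 gene symbol in the array annotation, 86 several and 10638 none. By gene ID, all 79 probe sets of the 40 genes were found in the ARS-UCD2.0 gene table, and 0 symbols changed.

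Deposited values were used as they are. A probe set entered the test if 3 or more arrays exceeded log2 4. Tests were made with limma 3.58.1 (R 4.3.3), in a fit of the 9 conceptus arrays (6 residual degrees of freedom) and, for FB, of all 12 (8). Tests were two-sided, adjusted by Benjamini and Hochberg over all probe sets tested, and called at an adjusted p under 0.05. The fit of the 9 conceptus arrays was tested on simulated data for IVP against AI, and the fit of all 12 was not. The number of arrays limits the precision; the median standard error was 0.16 and 0.14. When arrays were left out, the tested probe sets were kept.

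Every one of the 40 genes was accounted for; those tested among conceptuses were given by array, and from the further lists up to 4 called members were named. The genes and lists were chosen with earlier results of these data known.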

Additional observations from a re-analysis of the deposited data

How the results depend on the processing

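The counts of matrix genes called were compared under other filters, scalings, variance models, sets of arrays, probe set choices and a replicate block, all planned, and under 2 settings chosen after seeing the data. Quantile normalization, centring on medians, and a variance trend with robust moderation left the counts in all 6 comparisons as they were. In SCNT against AI the count of 1 became 0 with a filter at log2 5 and with values below log2 4 set to 4, and 3 with all 12 arrays in the fit (COL18A1, LAMC1 and NID1). In IVP against AI the count of 4 became 1 without a filter and with the GAPDH covariate. In SCNT against IVP the count of 1 became 0 in these same settings and with the replicate block, and 2 with all 12 arrays (COL18A1 and VCAN). Leaving out AI 2, IVP 2 and IVP 3 (high spike-in signal) left IVP with 1 array, so no counts are given for that setting. Over the omission of each array the counts ran from 1 to 3 in SCNT against AI, 1 to 4 in IVP against AI, 0 to 1 in SCNT against IVP, 22 to 22 in AI against FB, 21 to 23 in IVP against FB and 22 to 22 in SCNT against FB.

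With the replicate block VCAN in SCNT against IVP had an adjusted p of 0.0571, FN1 in IVP against FB 0.0603 and P4HA2 in IVP against AI 0.0534, and no other named call changed. The labels do not say that replicate numbers pair samples, and correlations of same-numbered arrays' deviations ran from -0.15 to 0.15. Of 268 recomputed values of the 16 named differences between conceptus groups, 225 kept their call, 43 lost it and 0 changed sign. Of 1125 values of 67 differences from FB, 1107 kept their call, 17 lost it and 1 changed sign: LAMB1 in IVP against FB was -0.04 with the GAPDH covariate. Most of the 67 belong to the 14 genes that passed the filter only through FB, or to COL4A1 and MGP, which passed only through conceptuses. These had to differ, so their kept calls say nothing about robustness. MGP counts as kept although another of its probe sets went the opposite way. Signals near log2 4, as for COL18A1, LAMA4 and HSPG2, limit what can be ordered. The causes were not tested.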
